A study of Mus musculus with 16 samples.

Results

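Igf2, which encodes insulin-like growth factor 2, and 5 further genes of the insulin-like growth factor (IGF) axis (Igf1r, Igf2r, Igfbp4, Igf2bp2 and Igf2bp3) were followed in RNA sequencing of DN3 thymocytes, an immature T-cell stage of the thymus that lacks CD4 and CD8. They were found by gene symbol in both count tables of the series and are 6 of the 22114 protein-coding genes that each table lists. Igf2 was picked because it was higher in GFPhi than in GFPlo cells, so that it was chosen by its CPM values in this comparison, which are given as a description, without a test. The other 5 genes are receptors and binding proteins of the axis.

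All 6 genes passed the filter on low counts in both tables, Igf2 in the GFP libraries through its reads in GFPhi.

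The first table held 3 GFPhi and 3 GFPlo libraries of DN3 thymocytes from H2B-GFP;Lmo2Tg mice, which carry a heterozygous TetOP-H2B-GFP knock-in and the CD2-Lmo2 transgene (Lmo2Tg), in which the CD2 promoter drives the T-cell oncogene Lmo2. Doxycycline was given for 6 weeks and withdrawn for 2 weeks, so that cells that had divided little kept the histone label (GFPhi) and cells that had divided more had diluted it (GFPlo). No library of this table lacked the transgene. The second table held total DN3 thymocytes, not sorted by GFP, of wild-type (3 libraries), p21-/- (2), Lmo2Tg (2) and Lmo2Tg;p21-/- (2) mice, where p21-/- mice lack the cell-cycle inhibitor gene Cdkn1a. All lines had been backcrossed onto C57BL/6J, and each library was made from cells pooled from 3 to 5 mice, given as 6-week-old, or as 2-month-old for GFP-sorted donors. A library is therefore a mean over animals, and the mice behind it cannot be told apart.

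Insulin-like growth factors are small secreted hormones that signal through the tyrosine kinase receptor IGF1R to PI3K, AKT and mTOR, and so to growth and survival. IGF2 is an imprinted fetal growth factor, and IGF2R, the cation-independent mannose 6-phosphate receptor, carries it to lysosomes for degradation and does not itself signal as a kinase. Binding proteins hold the hormone outside the cell, and the IMP proteins encoded by the Igf2bp genes bind Igf2 and many other mRNAs in the cytoplasm. In the thymus, IGFs are known as products of the stroma that act on developing T cells.

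Depth was 26861394 to 31106213 counts per library in the first table and 13864936 to 16837667 in the second. Levels are given as CPM (counts scaled to a common library total, with the TMM factors of the tests). Where genes are compared, they are given as CPM per kilobase (kb) of exon. The tables were counted separately, so every test stayed within a table. All 14 DN3 marker genes had counts in every group, with summed levels of 13300 to 13900 CPM in GFPhi, 11700 to 12500 in GFPlo and 9780 to 13100 across the genotypes. GFPhi replicate 3 stood apart from the other GFPhi libraries: the chi-square per degree of freedom against them was 112.31 and 132.62, where other pairs of the same group gave 2.57 to 26.72. Its Lmo2 level was 285 CPM, with 29.5 to 53.8 in the other 5 libraries of the table, and its Cdkn1a level was 6.56 CPM, with 35.8 and 29.9 in the other GFPhi libraries. Results of this table are therefore given with 6 libraries and with 5, without GFPhi replicate 3. Among the genotypes, Cdkn1a was at 36.5, 37.5 and 49.0 CPM in wild-type, 32.8 and 26.3 in Lmo2Tg, 14.3 and 17.7 in p21-/- and 4.35 and 3.50 in Lmo2Tg;p21-/- libraries. Cdkn1a was lower in every p21-/- library than in any library with p21, but reads remained on the gene. Lmo2 was at 41.4 to 107 CPM in the 4 libraries with the transgene and at 0.0636 to 0.306 CPM in the 5 without it. Both genes therefore followed the labels in all 9 libraries.

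LMO2 acts in transcription complexes with basic helix-loop-helix proteins, which bind the E-box CANNTG (its own reverse complement, so one strand shows all matches). The windows of 250 bases before the transcript start of Igf2 and of the 4 members that passed the test in a comparison below are shown for this reason, from RefSeq promoter sequences on GRCm38.p6, 5′ to 3′ on the strand of the gene, with each E-box in capitals.
Igf2 (chr7:142657497-142657746, − strand): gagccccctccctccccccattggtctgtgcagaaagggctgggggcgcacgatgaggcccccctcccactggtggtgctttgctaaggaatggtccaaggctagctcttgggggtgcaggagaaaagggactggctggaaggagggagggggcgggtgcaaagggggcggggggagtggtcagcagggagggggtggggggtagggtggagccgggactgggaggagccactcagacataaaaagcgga
Igf2 (chr7:142666817-142667066, − strand): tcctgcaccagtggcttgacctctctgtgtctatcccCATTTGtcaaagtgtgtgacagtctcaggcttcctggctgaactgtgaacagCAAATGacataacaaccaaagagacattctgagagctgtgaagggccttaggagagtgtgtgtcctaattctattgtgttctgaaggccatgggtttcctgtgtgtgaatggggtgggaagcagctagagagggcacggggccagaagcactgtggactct
Igf2r (chr17:12769707-12769956, − strand): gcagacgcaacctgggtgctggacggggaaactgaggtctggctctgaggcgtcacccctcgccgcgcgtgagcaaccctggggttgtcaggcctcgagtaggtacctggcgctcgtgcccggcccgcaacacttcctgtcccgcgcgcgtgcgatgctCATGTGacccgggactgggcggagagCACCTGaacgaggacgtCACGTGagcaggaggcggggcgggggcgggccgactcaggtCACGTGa
Igfbp4 (chr11:99040994-99041243, + strand): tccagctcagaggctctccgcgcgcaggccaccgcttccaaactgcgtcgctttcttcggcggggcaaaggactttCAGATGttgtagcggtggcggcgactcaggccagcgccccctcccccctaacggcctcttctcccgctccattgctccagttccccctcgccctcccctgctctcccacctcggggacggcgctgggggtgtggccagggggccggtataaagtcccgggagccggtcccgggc
Igf2bp2 (chr16:22163300-22163549, − strand): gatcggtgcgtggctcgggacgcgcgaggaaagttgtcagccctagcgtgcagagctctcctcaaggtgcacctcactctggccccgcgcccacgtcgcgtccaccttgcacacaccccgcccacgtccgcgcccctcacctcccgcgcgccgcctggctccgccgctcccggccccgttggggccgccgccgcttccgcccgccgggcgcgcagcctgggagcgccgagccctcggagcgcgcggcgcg
Igf2bp3 (chr6:49214955-49215204, − strand): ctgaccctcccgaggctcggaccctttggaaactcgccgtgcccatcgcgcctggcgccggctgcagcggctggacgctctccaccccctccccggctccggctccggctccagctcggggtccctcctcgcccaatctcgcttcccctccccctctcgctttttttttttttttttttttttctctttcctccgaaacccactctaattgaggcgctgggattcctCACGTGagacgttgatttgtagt
Igf2 had 4 annotated starts, and the 2 shown are the most downstream, with 0 E-boxes and 66% GC, and the most upstream, with 2 E-boxes and 50.8% GC. Igf2r had 4 E-boxes, Igfbp4 and Igf2bp3 had 1 each, and Igf2bp2 had 0, as did Igf1r. Of 32851 windows of this length, 66.2% held at least 1 E-box, with a median of 1, so that Igf2r was above the usual number and the others were at or near it. A match is a run of letters in this window and says nothing of binding, and 3 bases of the Igf2bp3 window lie within an annotated exon.

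The 6 genes lie on 5 chromosomes (GENCODE M21, GRCm38). Igf2 (ENSMUSG00000048583) spans chr7:142650766-142666816 and Igf1r (ENSMUSG00000005533) spans chr7:67952827-68233668, on opposite strands of the same chromosome. Igf2r (ENSMUSG00000023830) spans chr17:12682406-12769664, Igfbp4 (ENSMUSG00000017493) chr11:99041244-99054392, Igf2bp2 (ENSMUSG00000033581) chr16:22059009-22163299 and Igf2bp3 (ENSMUSG00000029814) chr6:49085223-49214957. Counts are over exons of the whole gene. Of the exon bases of Igf2, 62.83% are also annotated to Gm49394, a gene model on the same strand that neither table lists, and 18.74% of the exon bases of Igf2bp3 are shared with Malsu1 on the opposite strand. Whether reads were counted by strand is not given in the sources used here, so reads in these stretches may have been left out or assigned to the partner gene. Malsu1 itself was at 13.7, 13.8 and 16.6 CPM in GFPhi and 16.0, 16.5 and 18.1 CPM in GFPlo libraries.

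Igf2, the ligand, was nearly silent in GFPlo cells and detected in every GFPhi library. Its level was 0.259, 0.175 and 0.129 CPM in the 3 GFPlo libraries, which is 7, 5 and 4 reads. In the GFPhi libraries it was 5.95, 4.44 and 5.74 CPM, from 162, 130 and 154 reads. The groups did not overlap, and GFPhi replicate 3, which stood apart elsewhere, lay between the other GFPhi libraries. The fitted difference was 4.82 on the log2 scale (28.3-fold) over 6 libraries and 4.78 (27.5-fold) over 5. These values are those by which Igf2 was picked. Even in GFPhi cells Igf2 stayed a weakly expressed gene: per kb of exon it was at 0.939 ± 0.143 CPM (SD, n = 3), against 20.4 ± 1.49 for Igf2r.

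No other ligand of the axis was at a level that could be tested in the GFP libraries. Igf1, which encodes the hormone that is the main ligand of IGF1R, had 24 reads over the 3 GFPhi libraries and 10 over the 3 GFPlo libraries, at 0.0699 to 0.444 CPM. Ins1 and Ins2, the insulin genes, had 0 reads in all 15 libraries, and a count of 0 allows up to 3 reads in a library by counting error alone. Ins2 is a close neighbour of Igf2 on chromosome 7.

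Of the 5 other members, 0 were higher and 2 lower in GFPhi at an adjusted p below 0.05 with 6 libraries, against 5.37% and 9.49% of 11581 genes tested (14.9% in either direction). Without GFPhi replicate 3, 0 were higher and 3 lower, against 19.5% and 21.7% of 11745 genes (41.3% in either direction). In bulk RNA, fewer cells that express a gene and less of its RNA per cell cannot be told apart, and this holds for every level below.

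Igf2r, the clearance receptor for IGF2, was the most strongly expressed member and fell in GFPhi cells. It was at 343, 417 and 466 CPM in GFPlo and at 203.5, 189 and 176 CPM in GFPhi libraries. All GFPhi libraries lay below all GFPlo libraries. The log2 difference was -1.11 (SE 0.12, 2.16-fold lower, adjusted p = 0.00532 by the quasi-likelihood test of edgeR, adjusted over all genes by Benjamini-Hochberg). Over 5 libraries it was -1.05 (SE 0.13, adjusted p = 0.00115, edgeR).

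Igf1r, the signalling receptor, was at 74.3, 73.7 and 68.4 CPM in GFPlo and at 72.8, 58.4 and 118 CPM in GFPhi libraries. The groups overlapped, and the GFPhi values spread to both sides of GFPlo, with the highest in replicate 3. The log2 difference was 0.21 (95% interval -0.41 to 0.82, adjusted p = 0.604, edgeR) with 6 libraries and -0.13 (-0.36 to 0.10, adjusted p = 0.325) with 5. With 6 libraries, a rise of up to 0.82 or a value down to -0.41 on the log2 scale could not be told from no change. Per kb, Igf2r exceeded Igf1r 8.34-, 10.2- and 12.3-fold in the GFPlo libraries and 5.04-, 5.84- and 2.68-fold in the GFPhi libraries, so that the ratio of the receptors was lower in each GFPhi library. Insr, the insulin receptor, which can also bind IGF2, passed the test only without GFPhi replicate 3, at -0.69 on the log2 scale (SE 0.07, adjusted p = 0.000722, edgeR).

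Igfbp4, which encodes a secreted protein that binds IGFs, was at 80.6, 79.2 and 64.7 CPM in GFPlo and at 62.3, 61.0 and 118.5 CPM in GFPhi libraries. It did not pass the test with 6 libraries (log2 difference 0.11, 95% interval -0.57 to 0.78, adjusted p = 0.814, edgeR) or with 5 (-0.27, -0.51 to -0.03, adjusted p = 0.0687). The sign turned with GFPhi replicate 3, which held the highest value of the 6. The other binding-protein genes were scarcely read: Igfbp1 had 0 reads, Igfbp2, Igfbp3, Igfbp5 and Igfbp7 had at most 1 read in each group, and Igfbp6 had 17 in each. Igfals, the acid-labile subunit that binds IGF complexes in blood, had 53 reads in GFPhi and 112 in GFPlo and did not pass the test.

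Igf2bp2 and Igf2bp3 encode RNA-binding proteins named for their binding to Igf2 mRNA. Igf2bp2 was at 22.1, 23.2 and 22.3 CPM in GFPlo and at 3.86, 4.61 and 5.25 CPM in GFPhi libraries. The libraries within each group lay close together, and the groups were far apart. The log2 difference was -2.30 (SE 0.14, 4.92-fold lower, adjusted p = 0.0015, edgeR) with 6 libraries and -2.40 (SE 0.11, adjusted p = 6.1e-05) with 5. Igf2bp2 was thus the member with the largest fall. It was also the only member whose order against Igf2 turned. Igf2bp2 was above Igf2 in GFPlo (3.04 against 0.0328 CPM per kb) and below it in GFPhi (0.618 against 0.939 CPM per kb). This turn rests also on the values by which Igf2 was picked, and is a description only.

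Igf2bp3 was at 86.8, 74.4 and 69.4 CPM in GFPlo and at 36.2, 34.95 and 8.72 CPM in GFPhi libraries. All GFPhi libraries were lower than all GFPlo libraries, and replicate 3 was far below the other GFPhi libraries. With 6 libraries the log2 difference was -1.53 (95% interval -2.75 to -0.31) and did not pass the test (adjusted p = 0.0922, edgeR). With 5 it was -1.11 (SE 0.10) and passed (adjusted p = 0.000448, edgeR). With 6 libraries DESeq2 also called it (adjusted p = 0.00681), and limma-voom did not (adjusted p = 0.0591). Malsu1, which shares exon bases with it, differed by -0.20 with 6 libraries (adjusted p = 0.296) and by -0.29 with 5 (adjusted p = 0.0444, edgeR). Igf2bp1, the other member of the family, had 0 reads in the GFP libraries, as had Lin28a and Hmga2, further oncofetal genes of this network.

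**Figure D1:**
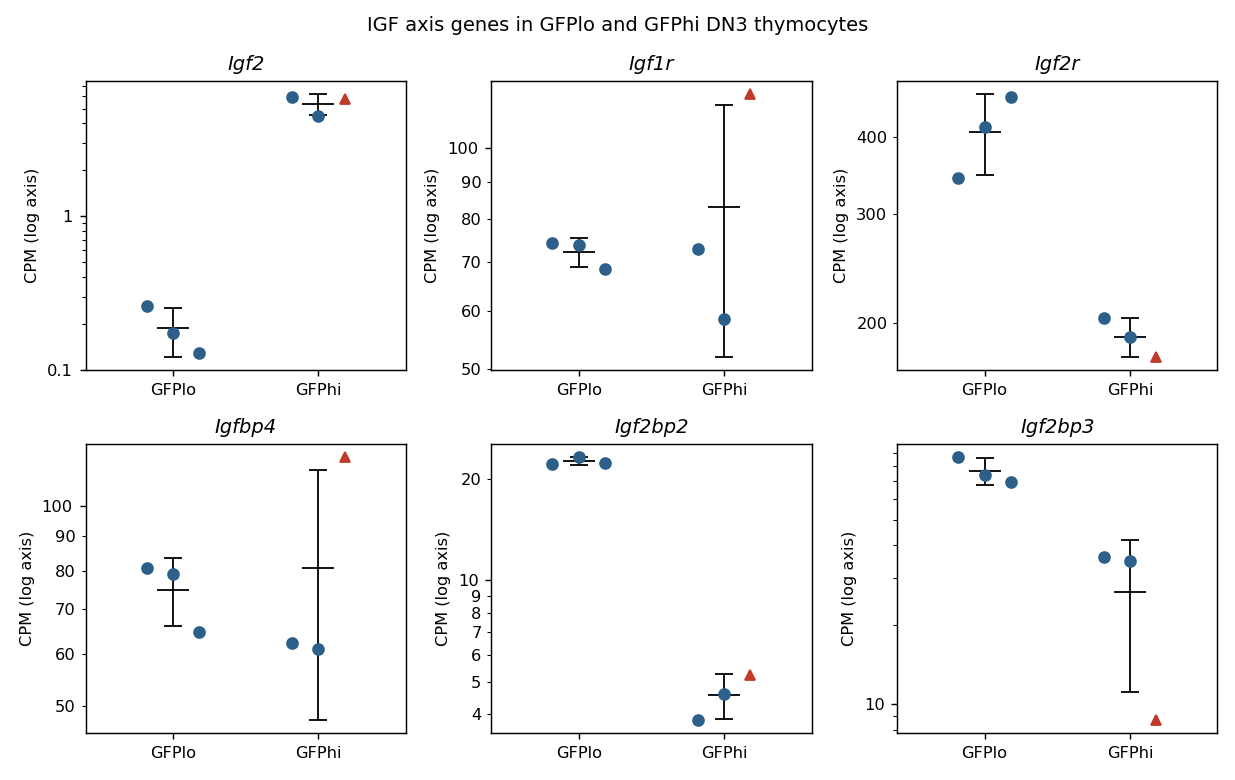
CPM (log axis, a separate range for each gene) of the 6 genes in the 3 GFPlo and 3 GFPhi libraries. Points are libraries, the red triangle is GFPhi replicate 3, and black bars show the mean and SD (n = 3). Igf2 is above GFPlo, and Igf2r, Igf2bp2 and Igf2bp3 below it, in all 3 GFPhi libraries, while the Igf1r and Igfbp4 values overlap. Igf2 was chosen by these values. How many of all genes separate in this way was not counted, and 14.9% were called by the test.

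By level per kb, the order in GFPlo was Igf2r (43.9 ± 6.63 CPM per kb, SD, n = 3), Igfbp4 (16.9 ± 2.00), Igf2bp3 (9.42 ± 1.10), Igf1r (4.29 ± 0.193), Igf2bp2 (3.04 ± 0.0781) and Igf2 (0.0328 ± 0.0115). The libraries of no neighbours in this order overlapped. In GFPhi, the order was Igf2r (20.4 ± 1.49), Igfbp4 (18.3 ± 7.43), Igf1r (4.96 ± 1.87), Igf2bp3 (3.26 ± 1.90), Igf2 (0.939 ± 0.143) and Igf2bp2 (0.618 ± 0.0942). Here Igf2r and Igfbp4 overlapped and so did Igf1r and Igf2bp3, and without replicate 3 only Igf2bp3 and Igf1r did. The profile of Igf2 over the 6 GFP libraries was most like those of Mbnl1, Angel2, Smg1, Ndfip2 and Ttc3, with Pearson correlations of log2 CPM of 0.996 to 0.997. Of 10804 genes considered, 357 had a correlation over 0.95, as the 6 libraries fall into 2 groups and share depth and sorting, so these 5 names do not set themselves apart.

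Markers of other cell types differed between the GFP groups, in both directions. Summed B-lineage markers (11 of 12 genes listed) were at 30.8 to 60.8 CPM in GFPhi and 25.6 to 29.1 in GFPlo. Ms4a1, which encodes the B-cell antigen CD20, had 333 reads over the GFPhi libraries and 1 over the GFPlo libraries, and Pax5, a B-lineage factor, had 249 and 5. Blnk (141 and 173 reads), Cd79b (1917 and 1948) and Igll1 (4 and 28), in the same list, had fewer reads in GFPhi. Macrophage and monocyte markers (12 genes) were at 13.3 to 23.1 CPM in GFPhi and 15.5 to 16.8 in GFPlo. Cybb was at 161 and 1 reads and C1qa at 72 and 6, while Fcgr1 and Mertk were at 0 in GFPlo. Itgam (152 and 385 reads), Cd68 (322 and 450) and Lyz2 (413 and 522) had fewer reads in GFPhi. Itgam was called lower without GFPhi replicate 3. The genes called higher from these lists, 5 and 3 in number, had passed the filter on low counts through GFPhi alone, and most of the calls were lost when a GFPlo library was left out (for Ms4a1, Cr2, Cd22 and Pax5 at adjusted p = 0.0621 to 0.116 without GFPlo replicate 2, edgeR), so that these counts are no evidence of a direction. Thymic epithelial markers (9 genes) were at 39.4 to 80.9 CPM in GFPhi and 25.2 to 33.5 in GFPlo, with Krt14 at 0 in both, and Epcam alone gave 36.8 to 79.5 and 15.7 to 22.7 CPM of these sums. Of 4 tested, 2 were higher (Epcam and Prss16) and 2 lower (Aire, -3.26, and Cldn4, -2.08), against 5.37% and 9.49% of all genes. The calls on Epcam, Prss16 and Cldn4 were lost when 1 of several libraries was left out (adjusted p up to 0.112, 0.0749 and 0.121, edgeR). Prss16 had passed the filter through GFPhi alone and Cldn4 through GFPlo alone, each the group where it is higher. These 2 calls are therefore no evidence of a direction. Mesenchymal markers (9 genes) were at 703 CPM in GFPhi replicate 3, 157 and 253 in the other GFPhi libraries and 386 to 427 in GFPlo, nearly all of it from Pdgfrb, at 154 to 702 CPM in GFPhi and 385 to 426 in GFPlo. Without GFPhi replicate 3, Pdgfrb was lower (-1.01, SE 0.18) and Col1a1 higher (1.18, SE 0.21), and Col3a1, Lum and Pdgfra, which mark fibroblasts, were at 0 in both groups. The part of these cells in the Igf2 reads was not tested.

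Downstream of the receptors, the genes of the axis other than the 6 members were described as lists. Of 71 tested, 2 were higher and 13 lower in GFPhi (21.1%), with a median log2 difference of 0.0108, against 0.0152 over all genes. The 13 include Plagl1 and Cdkn1c, which reached the filter on low counts in GFPlo alone, where they are higher. Without GFPhi replicate 3, 14 were higher and 21 lower (49.3%). All genes gave 14.9% and 41.3% in these comparisons, and the medians of the axis lay close to those of all genes.

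Among 13 receptor adaptors tested, 0 were higher and 1 was lower in GFPhi, against 5.37% and 9.49% of all genes. This was Grb10, an imprinted adaptor that restrains insulin and IGF receptor signalling, which fell from 3.22 to 4.48 CPM in GFPlo to 0.596 to 0.882 CPM in GFPhi (log2 difference -2.38, SE 0.26, adjusted p = 0.00492, edgeR). Of 28 genes from PI3K to mTOR, 2 were higher and 6 lower, with a median of 0.0844. Pik3cb, the p110-beta catalytic subunit of PI3K, rose from 0.644 to 0.699 CPM in GFPlo to 3.80 to 8.09 CPM in GFPhi (3.29, SE 0.35, adjusted p = 0.00484, edgeR). Eif4ebp1, a translation repressor that mTOR inactivates, fell by 1.58 on the log2 scale (SE 0.15), Rictor, the mTORC2 scaffold, by 0.62 (SE 0.10), and Tsc1, an inhibitor of mTORC1, by 0.51 (SE 0.10). The genes that fell thus included inhibitors as well as activating members of the pathway. The calls on Rictor and Tsc1 were lost when 1 of several libraries was left out (adjusted p up to 0.0824 and 0.127, edgeR). Inpp5d was also higher, and Pik3cg, Rptor and Tsc2 were also lower.

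Igf2 is imprinted and lies in a cluster with Cdkn1c, a growth-restraining cell-cycle inhibitor. Of 10 neighbours of Igf2 on chromosome 7 that could be tested, 0 were higher and 2 lower in GFPhi, against 5.37% and 9.49% of all genes. Of the 2, Cdkn1c reached the filter on low counts in GFPlo alone, where it is higher, so its call is no support for a direction. Cdkn1c was at 1.15 to 1.77 CPM in GFPlo and 0.294 to 0.41 CPM in GFPhi (log2 difference -1.96, SE 0.30, adjusted p = 0.0125, edgeR), and Tspan32, a tetraspanin gene, was at 32.9 to 47.2 CPM in GFPlo and 8.38 to 17.3 in GFPhi (-1.63, SE 0.28). Without GFPhi replicate 3, 2 neighbours were higher (Cars and Nap1l4) and 4 lower (Cd81, Cdkn1c, Lsp1 and Tspan32). Of all genes, 19.5% were higher and 21.7% lower in that comparison. Over all 909 genes tested on chromosome 7 the median log2 difference was 0.0572.

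In the list of imprinted genes that are known to be coexpressed in fetal tissues, 9 of the 25 genes found in the tables could be tested. Of these, 0 were higher and 5 lower in GFPhi, against 5.37% and 9.49% of all genes, with a median of -1.96. The 5 were Igf2r, Grb10, Cdkn1c, Ddc (-2.04, SE 0.31) and Plagl1, an imprinted zinc-finger gene known to regulate this network, which had 2 reads over the GFPhi libraries and 103 over the GFPlo libraries. Plagl1 and Cdkn1c reached the filter on low counts in GFPlo alone, the group where they are higher. Their calls are therefore no support for a direction of the list, nor is the median of -1.96, which is the value of Cdkn1c. The calls on Cdkn1c, Ddc, Plagl1 and Tspan32 were lost without GFPlo replicate 2 (adjusted p = 0.0749, 0.0725, 0.0584 and 0.0886, edgeR). Those on Cdkn1c, Ddc and Tspan32 were also lost without GFPlo replicate 3 (0.0592, 0.0515 and 0.0567), and that on Tspan32 without GFPlo replicate 1 or GFPhi replicate 1 (0.0618 and 0.0634). The lists overlap, since Grb10, Cdkn1c, Plagl1 and Igf2r each stand in more than 1. Among 11 genes listed as regulators of Igf2, 0 were higher and 3 lower, against 5.37% and 9.49% of all genes. The 3 were Plagl1 (admitted as above), Plagl2 (-0.21, SE 0.05) and Dnmt3b (-1.08, SE 0.08, adjusted p = 0.00175, edgeR). The call on Plagl2 was lost without any 1 library other than GFPhi replicate 3, at 0.109 to 0.198. Dnmt3b, a DNA methyltransferase, fell from 144 to 158 CPM in GFPlo to 67.7 to 78.5 CPM in GFPhi. Plag1, a known activator of Igf2, was called only without GFPhi replicate 3 (1.13, SE 0.33, adjusted p = 0.0342).

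In total DN3 cells, Igf2 was detected in every library of every genotype at a low level. It was at 2.51, 2.23 and 2.48 CPM in wild-type, 1.47 and 1.58 in p21-/-, 1.48 and 1.64 in Lmo2Tg and 1.78 and 1.51 in Lmo2Tg;p21-/- libraries, from 20 to 41 reads each. The 3 wild-type libraries lay above all 6 others, and the other genotypes overlapped one another. The log2 difference from wild-type was -0.62 in Lmo2Tg (95% interval -1.18 to -0.07, adjusted p = 0.0753, edgeR) and -0.66 in p21-/- (-1.20 to -0.11, adjusted p = 0.984, edgeR), and neither passed the test. Lmo2Tg;p21-/- differed by 0.11 from p21-/- (-0.51 to 0.73, adjusted p = 0.806) and by 0.07 from Lmo2Tg (-0.56 to 0.70, adjusted p = 0.912). All 9 values lay between those of GFPlo and GFPhi, although the levels come from tables that were counted apart and cannot be tested against each other. In these libraries Arfip2, Rell2, Fbxl19, Marc2 and Mtfp1 had profiles most like that of Igf2 (Pearson correlations of log2 CPM of 0.881 to 0.919 over 9 libraries), and 0 of 11035 genes reached 0.95.

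The Lmo2 transgene was examined first, in the presence of p21. Of the 6 members, 3 were higher and 1 lower in Lmo2Tg than in wild-type, against 19.7% and 16.9% of 11840 genes tested (36.6% in either direction). In the absence of p21, 3 were higher and 0 lower in Lmo2Tg;p21-/- than in p21-/-, against 16.3% and 14.4% (30.7% in either direction). These comparisons share no library, but come from 1 fit with 1 estimate of the spread.

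Igf2r was at 144, 134 and 116 CPM in wild-type, 142 and 145 in p21-/-, 180 and 188 in Lmo2Tg and 192 and 198 in Lmo2Tg;p21-/- libraries. All libraries with the transgene were above all libraries without it. The log2 difference was 0.49 in Lmo2Tg against wild-type (SE 0.09, 1.40-fold, adjusted p = 0.00191, edgeR) and 0.44 in Lmo2Tg;p21-/- against p21-/- (SE 0.10, 1.36-fold, adjusted p = 0.00693, edgeR). Igf2r was thus higher with the transgene in total DN3 cells and, among cells that all carry it, lower in the GFPhi fraction.

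Igfbp4 was at 38.0, 34.98 and 30.9 CPM in wild-type, 25.2 and 33.2 in p21-/-, 79.2 and 57.8 in Lmo2Tg and 123 and 75.8 in Lmo2Tg;p21-/- libraries. The libraries with the transgene lay above all those without it, and spread more widely. The difference was 0.98 (SE 0.20, 1.98-fold, adjusted p = 0.00357, edgeR) where p21 was present and 1.77 (SE 0.23, 3.41-fold, adjusted p = 0.000222, edgeR) where it was absent. The difference between these effects was 0.79 (95% interval 0.11 to 1.46, adjusted p = 0.208), and did not pass the test.

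Igf2bp3 was at 24.9, 19.97 and 21.9 CPM in wild-type, 21.3 and 39.4 in p21-/-, 56.1 and 66.3 in Lmo2Tg and 55.2 and 65.4 in Lmo2Tg;p21-/- libraries. The transgene separated the libraries without overlap, and 1 p21-/- library stood above the other libraries without the transgene. The difference was 1.46 (SE 0.20, 2.75-fold, adjusted p = 0.000336, edgeR) with p21 and 0.99 (SE 0.23, 1.99-fold, adjusted p = 0.00712, edgeR) without it. Malsu1 differed by only -0.05 in Lmo2Tg against wild-type (adjusted p = 0.79), with 13.2 to 17.9 CPM over all 9 libraries.

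Igf2bp2 went the other way at a small size. It was at 13.0, 12.8 and 15.3 CPM in wild-type, 15.4 and 13.2 in p21-/-, 10.1 and 9.51 in Lmo2Tg and 10.1 and 11.6 in Lmo2Tg;p21-/- libraries, and the groups with and without the transgene did not overlap. The difference was -0.48 with p21 (SE 0.14, 1.40-fold lower, adjusted p = 0.0239, edgeR) and -0.39 without it (95% interval -0.73 to -0.06, adjusted p = 0.0739), which did not pass. The first call was lost when either Lmo2Tg library or wild-type replicate 3 was left out (adjusted p = 0.0751, 0.112 and 0.0618, edgeR). Per kb, Igf2bp3 exceeded Igf2bp2 1.74-, 1.42- and 1.30-fold in wild-type, 1.26- and 2.70-fold in p21-/-, 5.03- and 6.33-fold in Lmo2Tg and 4.95- and 5.12-fold in Lmo2Tg;p21-/- libraries. In the GFP libraries, which all carry the transgene, this ratio was 3.56, 2.91 and 2.82 in GFPlo and 8.50, 6.88 and 1.51 in GFPhi.

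Igf1r was at 61.3, 56.5 and 52.0 CPM in wild-type, 62.8 and 59.8 in p21-/-, 71.4 and 44.3 in Lmo2Tg and 80.4 and 46.1 in Lmo2Tg;p21-/- libraries. In both genotypes with the transgene, 1 library was above and 1 below all libraries without it. The transgene effect was 0.03 with p21 (95% interval -0.46 to 0.52, adjusted p = 0.933, edgeR) and 0.04 without it (-0.49 to 0.58, adjusted p = 0.913), so that changes within about these intervals could not be seen.

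**Figure D2:**
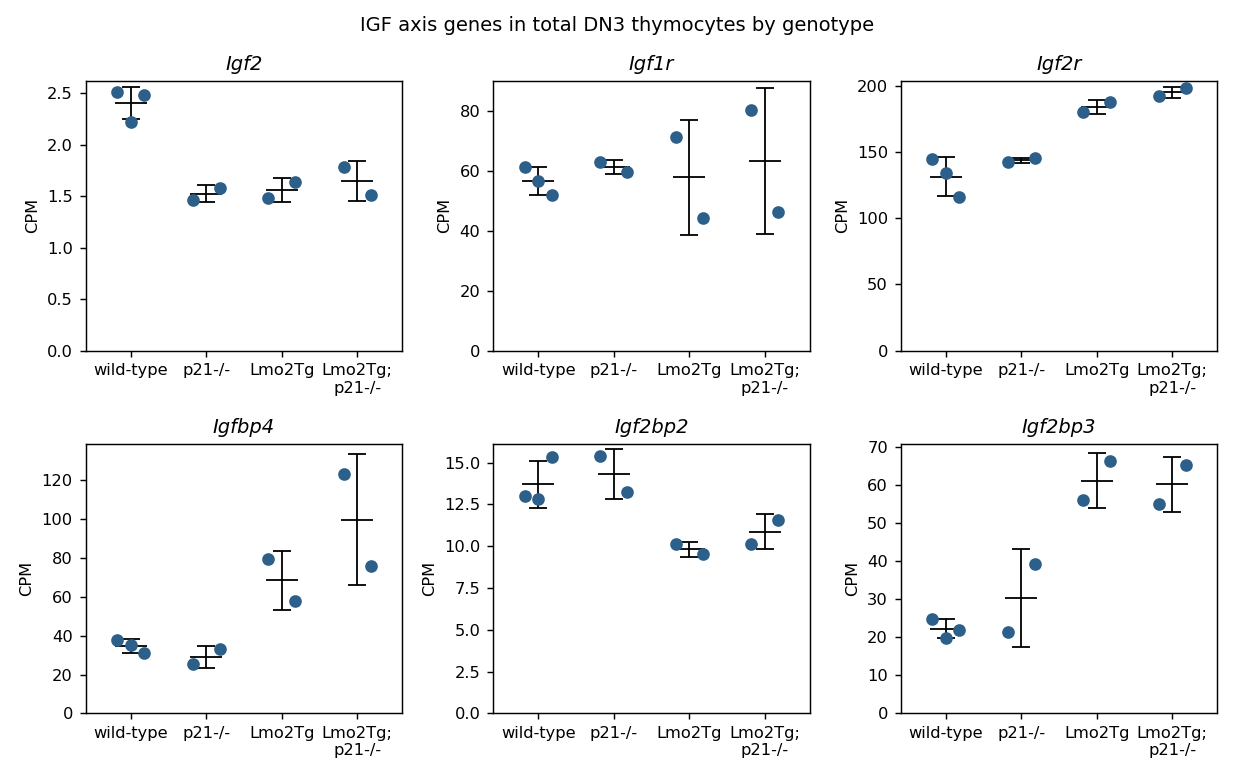
CPM (linear axes from 0) of the 6 genes in total DN3 thymocytes of 4 genotypes. Points are libraries and black bars show the mean and SD (n = 3 for wild-type, n = 2 for the others). Igf2r, Igfbp4 and Igf2bp3 are higher and Igf2bp2 is lower in all 4 libraries with the Lmo2 transgene than in the 5 without it. How many of all genes separate in this way was not counted. By the test, 36.6% and 30.7% of all genes were called for the transgene with and without p21.

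Loss of p21 was examined with and without the transgene, and no member passed the test. In p21-/- against wild-type, 0 of 6 were called by edgeR, DESeq2 or limma-voom, and 1 (Igf2) had an unadjusted edgeR p below 0.05. Over all genes, 0.0507% were called higher and 0.0591% lower (0.11% in either direction), and 391 of 11840 had an unadjusted p below 0.05. The intervals of the log2 difference were -0.37 to 0.60 for Igf1r, -0.07 to 0.33 for Igf2r, -0.72 to 0.22 for Igfbp4, -0.24 to 0.37 for Igf2bp2 and -0.02 to 0.91 for Igf2bp3.

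In Lmo2Tg;p21-/- against Lmo2Tg, 0 of 6 were called by any of these tools, against 3.35% of all genes higher and 3.59% lower (6.94% in either direction), and 3023 of 11840 genes had an unadjusted edgeR p below 0.05. Igfbp4 was the 1 member with an unadjusted p below 0.05 (log2 difference 0.54, 95% interval 0.05 to 1.02, adjusted p = 0.158, edgeR). The intervals were -0.41 to 0.67 for Igf1r, -0.14 to 0.30 for Igf2r, -0.20 to 0.50 for Igf2bp2 and -0.50 to 0.46 for Igf2bp3.

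The interaction asks whether the effect of the transgene differed with p21. It was called for 0 of 6 members by edgeR, DESeq2 or limma-voom, against 0.279% of all genes higher and 1.1% lower (1.38% in either direction), and 2148 of 11840 genes had an unadjusted edgeR p below 0.05, Igfbp4 among them. The interval for Igf2 was -0.11 to 1.56 (log2 value 0.73, adjusted p = 0.337), and that for Igf2bp3 was -1.14 to 0.21 (-0.47, adjusted p = 0.448). Those for Igf1r, Igf2r and Igf2bp2 included 0 as well, with values of 0.01, -0.05 and 0.09.

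**Figure D3:**
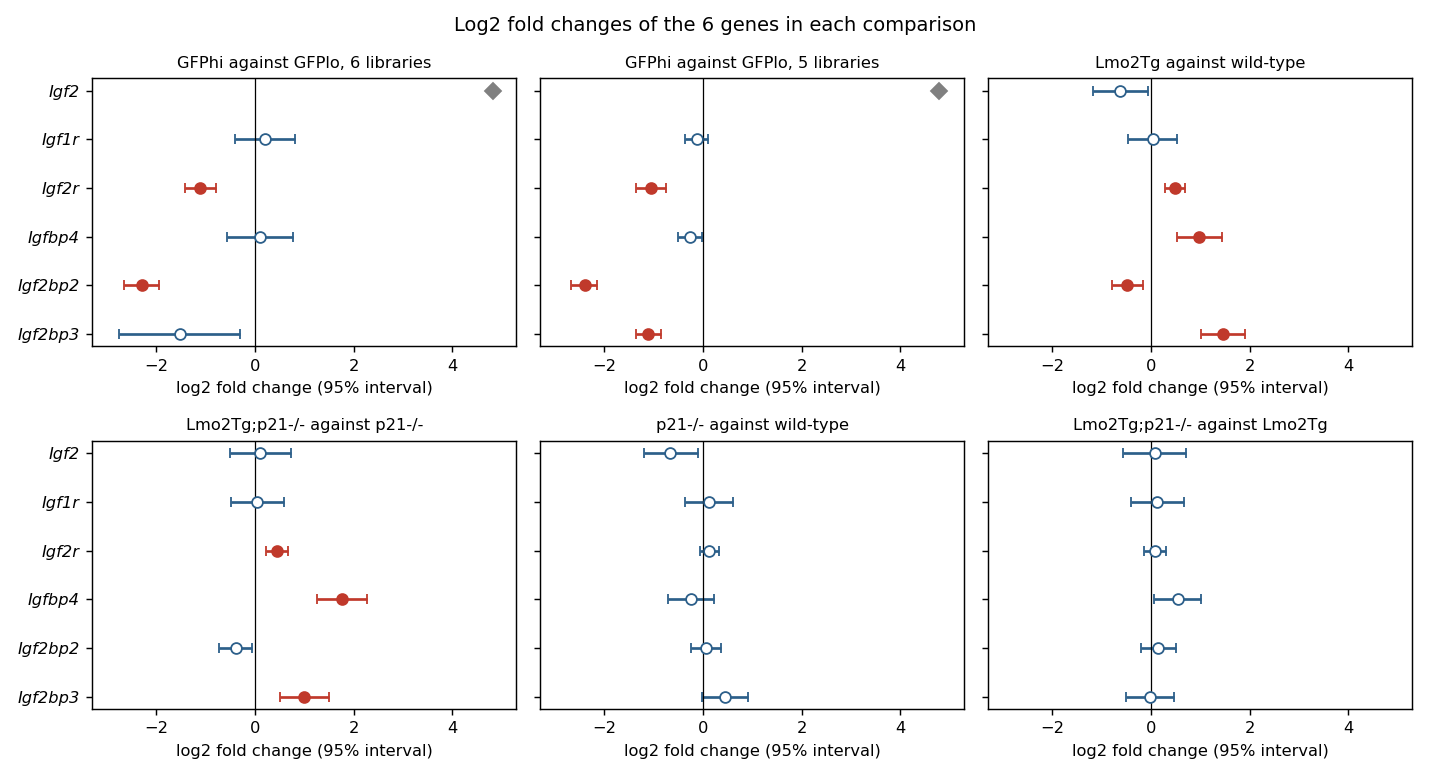
Log2 fold change of each of the 6 genes (horizontal axis) in 6 comparisons, with 95% intervals from edgeR. Filled red points passed an adjusted p below 0.05 and open blue points did not, and the grey diamond is Igf2 in the comparison by which it was chosen, without an interval. Igf2r lies at -1.11 in GFPhi against GFPlo and at 0.49 and 0.44 in the comparisons of the transgene, and no point is filled in the comparisons of p21.

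Per kb, the order of the members in wild-type cells was Igf2r (14.1 ± 1.54 CPM per kb, SD, n = 3), Igfbp4 (7.84 ± 0.806), Igf1r (3.37 ± 0.278), Igf2bp3 (2.73 ± 0.307), Igf2bp2 (1.85 ± 0.189) and Igf2 (0.421 ± 0.0274), with no overlap between neighbours. In p21-/- cells Igf2bp3 and Igf1r overlapped. In Lmo2Tg cells Igf2bp3 (7.51 ± 0.884, n = 2) stood above Igf1r (3.45 ± 1.14), without overlap. Among Lmo2Tg;p21-/- cells, Igfbp4 (22.6 ± 7.62) and Igf2r (20.95 ± 0.460) led and overlapped. Igf2 was the lowest member in all 4 genotypes.

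Of the 75 other axis genes tested, 25 were higher and 10 lower in Lmo2Tg than in wild-type (46.7%), against 36.6% of all genes. Their median log2 difference was 0.127, against -0.013 over all genes. In the absence of p21, 18 were higher and 10 lower (37.3%, against 30.7% of all genes), with a median of 0.0263, against -0.00427. Counted with the members, 39 of 81 axis genes were called in the first comparison and 31 in the second, and 25 were called in both in the same direction, which is 64.1% of the first and 80.6% of the second. Over all genes with a unique symbol, 2304 were called in both in the same direction, which is 53.2% and 63.3%, and the difference from these shares was not tested. The 6 members contributed Igf2r, Igfbp4 and Igf2bp3 to these 25.

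Near the ligand and binding proteins, Igf1 had 1 to 4 reads in each genotype. Igfals was at 0.245 to 0.363 CPM in wild-type and 0.889 to 1.11 CPM in Lmo2Tg libraries (log2 difference 1.66, SE 0.41, adjusted p = 0.00898, edgeR), from 15 and 28 reads, and DESeq2 did not call it (adjusted p = 0.132). The Lmo2Tg;p21-/- libraries gave 6 reads of it, and it was lower than in Lmo2Tg (-2.30, SE 0.50, adjusted p = 0.0248, edgeR), a call lost without any 1 library of either group (0.0769 to 0.147). Its call against wild-type was lost without 1 Lmo2Tg library (0.0753). Igfals was below the minimum count of 10 in wild-type and Lmo2Tg;p21-/- libraries. It passed the filter on low counts through other libraries, those of Lmo2Tg among them, where it is higher. Both calls on Igfals are therefore no support for a direction. Stc1, a stanniocalcin gene whose product inhibits the proteases that cleave IGF binding proteins, fell by 0.94 (SE 0.27, adjusted p = 0.0184, edgeR) with p21 and by 2.39 (SE 0.32, adjusted p = 0.000273, edgeR) without it. The first of these calls was lost without wild-type replicate 1 or 3 or 1 Lmo2Tg library (adjusted p = 0.052, 0.0535 and 0.123). The proteases themselves, Pappa and Pappa2, had 0 to 2 reads in each genotype.

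Of 14 receptor adaptors, 4 were higher and 2 lower in Lmo2Tg than in wild-type, against 19.7% and 16.9% of all genes. The insulin receptor substrates moved in opposite directions. Irs2 was at 4.29 to 10.5 CPM in wild-type and 44.7 to 65.5 CPM in Lmo2Tg (log2 difference 2.83, SE 0.35, adjusted p = 0.000151, edgeR), whereas Irs1 was at 0.674 to 1.21 CPM in wild-type and 0.0684 to 0.222 CPM in Lmo2Tg (-2.57, SE 0.61, adjusted p = 0.00778, lost without 1 Lmo2Tg library at 0.0731). Irs1 was below the minimum count of 10 in Lmo2Tg and passed the filter on low counts through other libraries, those of wild-type among them. Its call is therefore no support for a direction. Socs2, a feedback inhibitor of cytokine and growth hormone signalling, rose by 1.61 (SE 0.27) and the docking protein gene Gab1 fell by 0.92 (SE 0.19). Without p21, 4 adaptors were higher and 1 lower, against 16.3% and 14.4% of all genes. Socs2 (1.67, SE 0.31), the adaptor Grb2 (1.00, SE 0.07), Gab2 (0.84, SE 0.20) and Socs1 (-0.46, SE 0.15) were among them. The calls on Gab2 and Socs1 were lost when 1 of several libraries was left out (adjusted p up to 0.112 and 0.248). Irs2 fell by 1.75 (SE 0.38, adjusted p = 0.0242, edgeR) in Lmo2Tg;p21-/- against Lmo2Tg, to 15.5 and 17.2 CPM, but this call was lost when either Lmo2Tg;p21-/- library was left out (adjusted p = 0.134 and 0.0893) or 1 Lmo2Tg library (0.0785).

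Of 28 genes from PI3K to mTOR, 10 were higher and 2 lower in Lmo2Tg against wild-type, where 36.6% of all genes were called. In Lmo2Tg;p21-/- against p21-/-, 8 were higher and 2 lower, where 30.7% were called. The medians were 0.155 and 0.00926. Rictor (0.90, SE 0.15, and 0.83, SE 0.17) and Foxo3, a transcription factor that AKT inactivates (0.61, SE 0.09, and 0.73, SE 0.10), rose in both. Pik3r5, a regulatory subunit of PI3K-gamma, fell in both (-1.06, SE 0.08, and -0.87, SE 0.09). Rictor had fallen in GFPhi against GFPlo, and rose with the transgene, as Igf2r did.

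Among 10 neighbours of Igf2, 4 were higher and 1 lower with the transgene where p21 was present, and 3 and 2 where it was absent. Of all genes, 36.6% and 30.7% were called in these comparisons. Tspan32 was at 1.09 to 1.46 CPM in wild-type and 11.6 to 18.9 CPM in Lmo2Tg (log2 difference 3.54, SE 0.25, adjusted p = 3.2e-06, edgeR), with 3.70 (SE 0.28) in the absence of p21. Cd81, another tetraspanin gene, rose by 1.65 (SE 0.25) and 1.38 (SE 0.28), and Lsp1, a leukocyte actin-binding protein gene, fell by 0.93 (SE 0.14) and 0.87 (SE 0.15). Cdkn1c rose by 2.39 (SE 0.41, adjusted p = 0.00119, edgeR) where p21 was present, from 0.368 to 0.509 CPM to 2.14 and 2.46 CPM. Its wild-type levels were below the minimum count of 10, so it passed the filter on low counts through other libraries, those of Lmo2Tg among them. Its call is therefore no support for a direction. Igf2 itself, between these genes on chromosome 7, did not pass the test in either comparison.

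Of 13 imprinted genes tested, 7 were higher and 1 lower in Lmo2Tg against wild-type, where 36.6% of all genes were called. In Lmo2Tg;p21-/- against p21-/-, 3 were higher and 1 lower, where 30.7% were called. The medians were 0.671 and 0.192. Cdkn1c, Plagl1 and Snrpn, among the 7, had too few reads in wild-type to pass the filter on low counts there. They passed it through other libraries, so the count of 7 and the median of 0.671 are no support for a direction of the list. Snrpn, an imprinted splicing-factor gene, had 1 read over the wild-type libraries and 43 over the Lmo2Tg libraries, at 0.222 and 2.74 CPM, and the call was lost without 1 of them (adjusted p = 0.228). Peg12 fell in both (-2.20, SE 0.51, and -2.81, SE 0.55), and Ddc rose by 1.65 (SE 0.30) in the absence of p21. The first call on Peg12 was lost without 1 Lmo2Tg library (0.0612) and with DESeq2 (0.051). Plagl1 had 17 reads over 3 wild-type and 45 over 2 Lmo2Tg libraries (2.16, SE 0.65, adjusted p = 0.024, edgeR), a call lost without any 1 of the wild-type libraries or 1 Lmo2Tg library (adjusted p = 0.0541 to 0.233). Among regulators of Igf2, Plag1 rose by 1.21 (SE 0.22) and 1.05 (SE 0.23), and Uhrf1, which maintains DNA methylation at replication, fell by 0.51 (SE 0.12) and 0.58 (SE 0.13). Leaving out 1 library ended both calls on Uhrf1 (0.0963 and 0.0714) and the second on Plag1 (0.0504).

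With loss of p21, 2 other axis genes were higher and 5 lower in Lmo2Tg;p21-/- against Lmo2Tg, where 6.94% of all genes were called. In the interaction, 0 of 75 were called by edgeR, against 1.38% of all genes. In p21-/- against wild-type, 0 were higher and 1 lower, against 0.11% of all genes. The 1 gene was Hmga1, a chromatin protein gene of the Lin28 and Igf2bp network, at 235 to 293 CPM in wild-type and 115 and 122 in p21-/- libraries (-1.11, SE 0.11, adjusted p = 0.00185, edgeR). It also fell in Lmo2Tg;p21-/- against Lmo2Tg, from 259 and 295 to 89.6 and 103 CPM (-1.52, SE 0.12, adjusted p = 0.000185, edgeR). Hmga1 lies 1.53 Mb from Cdkn1a on chromosome 17, and Igf2r lies 16.3 Mb from it on the same chromosome. The part of the region linked to the p21 allele in this change was not tested, and Hmga1 has a near-identical copy with which it may share reads. The call in p21-/- was lost without p21-/- replicate 2 (adjusted p = 0.0579).

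Cell-cycle and DN3 genes were also read in the comparisons of the transgene. Of 20 cell-cycle genes, 3 were lower in Lmo2Tg against wild-type and 18 in Lmo2Tg;p21-/- against p21-/-, with medians of -0.228 and -0.505. Of all genes, 16.9% and 14.4% were lower in these comparisons. In the interaction, 0 of the 20 were called. In GFPhi against GFPlo, 0 passed the test with 6 libraries, where 2 did with 5, against 14.9% and 41.3% of all genes. Without 1 Lmo2Tg library, Ccnb1 and Mcm2 lost their calls against wild-type (adjusted p = 0.272 and 0.18, edgeR). Bub1, Ccna2, Ccnb1 and Ccnb2 lost theirs in the second comparison without Lmo2Tg;p21-/- replicate 1 (0.0836 to 0.222) or p21-/- replicate 2 (0.0651 to 0.194). The other genes among the 18 were not followed over left-out libraries. Of 14 DN3 marker genes, 9 were lower and 1 higher in both comparisons of the transgene, where 16.9% and 14.4% of all genes were lower. Among the 9 was Ptcra (-1.90, SE 0.29, and -2.30, SE 0.31). Thymic epithelial markers were at 62.5 to 72.6 CPM in wild-type and 21.5 to 25.4 CPM in Lmo2Tg libraries, and mesenchymal markers at 68.0 to 78.8 CPM in wild-type and 217 to 264 CPM in Lmo2Tg. Epcam gave 48.0 to 57.0 CPM and at most 19.5 CPM of the first sums and Pdgfrb 66.9 to 75.7 and 216 to 261 CPM of the second, and Foxn1, Krt5 and Krt14 of the first list and Col1a2, Col3a1, Lum and Pdgfra of the second were at 0 in both groups. The part of these shifts in the levels of the IGF genes was not tested.

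**Figure D4:**
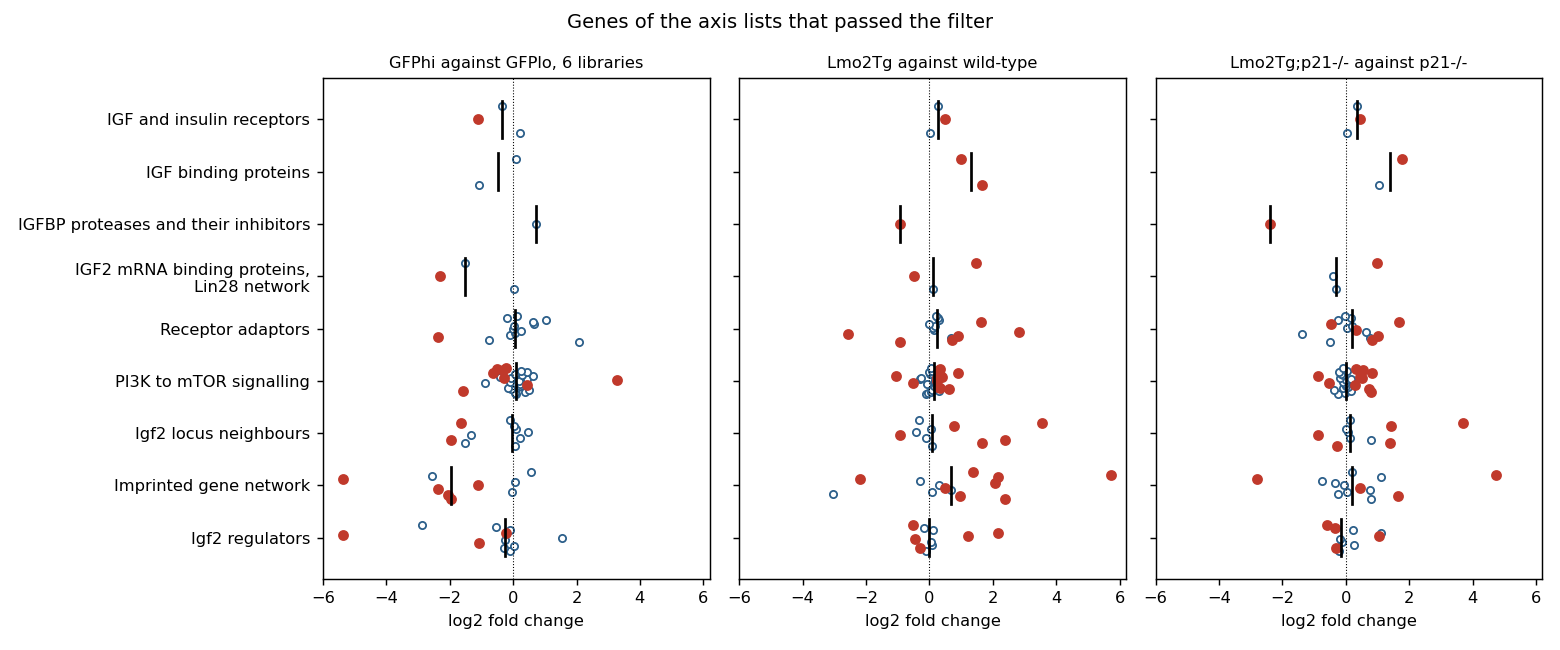
Log2 fold change (horizontal axis) of the tested genes of 9 axis lists in 3 comparisons, in which each point is a gene, red if its adjusted p was below 0.05, and black bars are list medians. In GFPhi against GFPlo the 5 called genes of the imprinted list lie to the left, of which Plagl1 and Cdkn1c passed the filter through GFPlo alone. In Lmo2Tg against wild-type 7 of the 8 called genes of this list lie to the right. Of these, Cdkn1c, Plagl1 and Snrpn had too few reads in wild-type to pass the filter there. The list of ligands, in which no gene but Igf2 could be tested, is not drawn.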

How the data were processed

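Poly-A RNA of DN3 thymocytes was sequenced by the authors, aligned to mm10 with STAR 2.4.2a and counted per gene with featureCounts (submitters' processing notes). The deposited values are raw counts for 22114 protein-coding genes in 2 tables, of 6 GFP-sorted and 9 genotype libraries. Whether counting used strand is not given in the sources used here, and the names of the tables differ in a word that may be a strand setting. The column of 1 further library matched no label and was not used, and p21-/- replicate 3 was not analysed here. The Lmo2Tg columns were matched to their group only.

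CPM was computed with the summed counts of the genes that passed the filter on low counts, scaled by TMM. Exon lengths and positions came from GENCODE M21 (98.2% of genes matched). Genes were filtered with filterByExpr (minimum count 10, minimum total 15), scaled by TMM and tested with edgeR 4.0.16 (quasi-likelihood, R 4.3.3) with Benjamini-Hochberg adjustment over all genes, and called below 0.05. The GFP groups were 1 fit, without and with GFPhi replicate 3, and the 4 genotypes another. Intervals are 95%. DESeq2 1.42.0, limma-voom (limma 3.58.1), other filters and scaling, left-out libraries and the replicate block were the alternatives. The steps were tested on simulated data. The 6 genes and the lists were chosen with earlier results of these data known. From each list and comparison, up to 4 called genes with the largest change were eligible to be named, and other names are of genes singled out after their values were seen. The 5 genes most like Igf2 were those with the highest Pearson correlation of log2 CPM (prior count 2) among genes with a mean of at least 1 CPM. Libraries were pools of mice, and the GFPhi and GFPlo cells came from 3 independent cohorts, although no source used here ties a replicate number to a cohort. The p-values measure the spread between pools. Depth sets the precision, and 3 counts is the limit that a count of 0 allows, for counting error only.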

Additional observations from a re-analysis of the deposited data

Results flagged for a closer look

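Lyz2, a macrophage marker outside the IGF axis, met a test of the difference between effects: its interaction of transgene and p21 loss was 1.16 on the log2 scale (adjusted p = 0.0376, edgeR), with 5.77 to 6.15 CPM in Lmo2Tg, 13.0 to 17.9 in Lmo2Tg;p21-/-, 17.8 to 18.8 in p21-/- and 14.6 to 16.6 in wild-type libraries, and it was lost when any 1 of several libraries was left out (adjusted p up to 0.186).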

How the results depend on the processing

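Of the values of the 6 genes under the alternatives, 496 kept their direction and their side of the threshold, 27 turned in sign, 3 were no longer called and 2 became called. The values that turned were not called: Igf1r with limma-voom was -0.01 (Lmo2Tg against wild-type), -0.02 (Lmo2Tg;p21-/- against p21-/-) and -0.01 (interaction), and -0.00 in the second comparison with the replicate block. Over left-out libraries, values ranged as follows. In GFPhi against GFPlo, Igf1r went from -0.13 to 0.41 and Igfbp4 from -0.27 to 0.27. In p21-/- against wild-type, Igf2bp2 went from -0.06 to 0.16 and Igf2bp3 from -0.06 to 0.82. In Lmo2Tg against wild-type, Igf1r went from -0.35 to 0.33. For Lmo2Tg;p21-/- against Lmo2Tg, Igf2 went from -0.06 to 0.18, Igf1r from -0.34 to 0.50 and Igf2bp3 from -0.16 to 0.11. In Lmo2Tg;p21-/- against p21-/-, Igf2 went from -0.02 to 0.22 and Igf1r from -0.42 to 0.38. In the interaction, Igf1r went from -0.45 to 0.39, Igf2r from -0.12 to 0.04, Igf2bp2 from -0.03 to 0.20 and Igf2bp3 from -0.84 to 0.04. In GFPhi against GFPlo, 2 members were called, 3 with DESeq2, 2 with the replicate block and 2 to 3 over left-out libraries. Of the other axis genes 15 were called there, 24 with DESeq2, 7 with the block and 4 to 35 over left-out libraries, and of all genes 1721, 2912, 496 and 273 to 4848. In p21-/- against wild-type, 1 other axis gene was called, 2 with DESeq2 and 0 to 1 over left-out libraries, and 13 of all genes, 20 with DESeq2, 21 without a filter and 8 to 18. In Lmo2Tg against wild-type 4 members were called, 1 under the 2-fold threshold of the study and 3 to 4 over left-out libraries, and 4329 of all genes (2815 to 4248). In Lmo2Tg;p21-/- against Lmo2Tg 7 other axis genes were called, 3 with the compared groups fitted alone and 2 to 9, and 822 of all genes, 404 alone and 60 to 1128. Between Lmo2Tg;p21-/- and p21-/-, 3 members were called, 1 under the 2-fold threshold and 3 to 3, and 3639 of all genes (1914 to 4251). In the interaction 0 other axis genes were called, 2 with DESeq2, 4 without a filter and 0 to 3, and 163 of all genes, 459, 520 and 0 to 449. Whether replicate numbers pair the samples could not be decided. The deviations of same-numbered GFP libraries from their group means correlated at 0.07, -0.079 and 0.099. These means hold GFPhi replicate 3, which stood apart, so a pairing is not excluded. Genotype pairs ran from -0.237 (replicate 1 of p21-/- and wild-type) to 0.303 (replicate 2 of the same groups). With the block, the GFP calls on Cdkn1c (adjusted p = 0.053), Plagl1 (0.0507), Rictor (0.053), Tsc1 (0.0875) and Plagl2 (0.132) were lost, and the block of p21-/- against wild-type used 5 libraries. Beyond fewer libraries, the 2-fold requirement and the added terms, the cause was not tested. The reads of Igf2 in GFPlo (4 to 7) limit its fold change there.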
